A study of Mus musculus with 3 samples.

Results

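A set of 10 genes of histone chaperones were described in poly(A) RNA from cultured mouse cortical astrocytes, and all of them were found by gene symbol among the 19471 genes of the deposited table. Each had a mean normalized read count above 10, the level taken here as detected, which 13941 genes reached. The table holds 1 group of 3 libraries. Each library came from the cortex of a different wild-type (WT) pup at postnatal day 1 (P1), whose astrocytes were kept in culture for 7 days, and pups 5, 6 and 8 are replicates 1, 2 and 3. The titles give the age as P1, whereas the sample descriptions read P0, and the titles were followed. The descriptions also label all 3 libraries Ctrl. The series was set up around the H2B variant H2BE, but no mutant, other age or other cell type is compared here. The comparisons are therefore between genes within each library, and between the 3 cultures.

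Histone chaperones are proteins that bind histones outside the nucleosome and hand them to DNA, to enzymes or to each other. Histones H3 and H4 reach DNA by more than one route. During S phase the replication-coupled route runs through chromatin assembly factor 1 (CAF-1), which works with the sliding clamp PCNA at the fork. Outside replication the HIRA complex and the DAXX-ATRX pair place the variant H3.3, and ASF1 proteins bring H3-H4 to both routes. H2A-H2B dimers are handled by the NAP1 family and by FACT, while ANP32E removes the variant H2A.Z. Long-lived cells such as neurons and glia are known for their build-up of H3.3 after they stop dividing.

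The libraries held 14380993, 25128038 and 9858626 reads for replicates 1, 2 and 3, a 2.55-fold range. The detection limit, taken as 3 reads, corresponded to normalized counts of 2.44, 1.42 and 3.59, and every member lay far above it. All 10 astrocyte markers examined were detected, with summed normalized counts of 97910 to 118791 per library. Other cell types were also present in the RNA: 8 of 8 microglial markers were detected, with sums of 24105, 18727 and 16024 in replicates 1, 2 and 3, and 5 of 5 ependymal markers, with sums of 13671, 10164 and 11672. Of the neuronal markers 5 of 8 were detected, with sums of 773 to 1185. Oligodendrocyte lineage markers summed to 6531 to 9074 with 7 of 7 measured genes detected, fibroblast or mural markers to 2341 to 2815 with 5 of 6, and endothelial markers to 659 to 776 with 2 of 4. In such a mixed sample, fewer cells of a type and less RNA per cell cannot be told apart, and which cells carried the chaperone transcripts was not tested.

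Levels are compared between genes as normalized read count per kilobase of exon, using the union of each gene's exons in GENCODE vM21 on the mm10 build. On that scale the order from high to low was Ssrp1, Nap1l4, Anp32e, Nap1l1, Supt16, Asf1a, Asf1b, Chaf1b, Chaf1a and Hira, with a 30.9-fold range between the first and the last. The 5 genes for handling H2A-H2B and H2A.Z took the first 5 places and the 5 genes for H3-H4 the last 5. That split depended on the length used. With coding length Supt16 lay below Asf1a by a log2 difference of -0.89 (adjusted p = 1.36e-10, limma). Without division by length it lay above Asf1a by 1.46 (adjusted p = 3.51e-15, limma). The median detected gene stood at 71.7 per kilobase, and 7 of the 10 members lay above it. Chaf1a, Chaf1b and Hira lay below it. Of the 9 pairs of neighbours in that order, 2 had library ranges that overlapped, Anp32e with Nap1l1 and Chaf1b with Chaf1a.

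**Figure D1:**
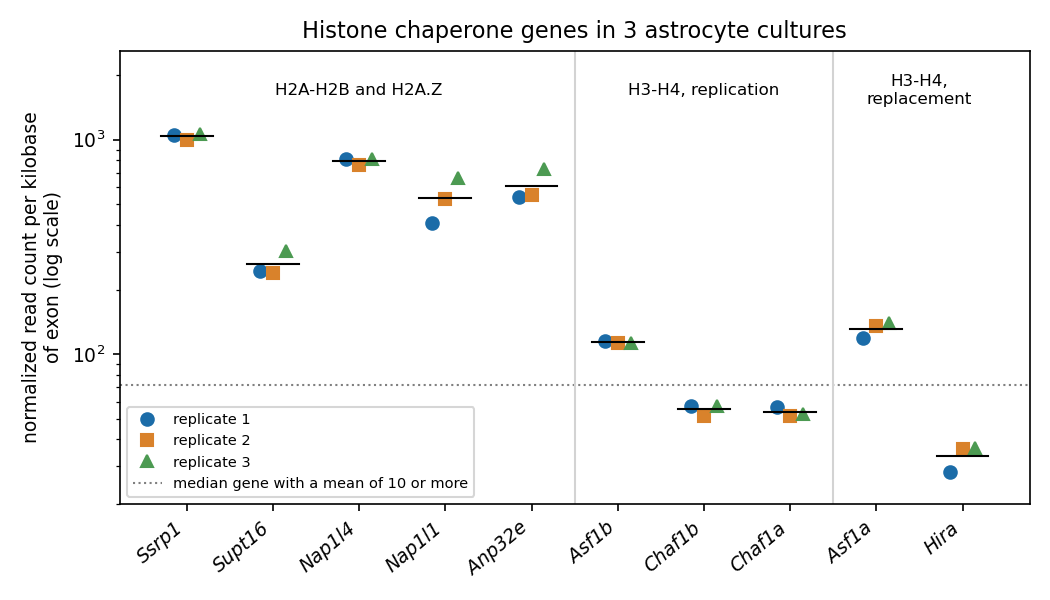
Normalized read count per kilobase of exon (log axis) of each member in each of 3 libraries; symbols are libraries, short bars are means and the dotted line is the median detected gene at 71.7. With this length the 5 members for H2A-H2B and H2A.Z lie above the 5 for H3-H4, and Hira is the lowest at a mean of 33.6.

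The FACT complex moves H2A-H2B out of and back into nucleosomes ahead of and behind polymerases, and it consists of SPT16 and SSRP1. Ssrp1 (chromosome 2, 85037234 to 85047109, plus strand) had normalized read counts of 3937, 3718 and 3977 in replicates 1, 2 and 3, a mean of 3877 ± 140 (SD, n = 3). Its level per kilobase, 1038 ± 37.4, was higher than that of 96.7% of detected genes. Supt16 (chromosome 14, 52160414 to 52197416, minus strand), which encodes the larger subunit, had counts of 1234, 1206 and 1527, a mean of 1322 ± 178. Per kilobase it stood at 262 ± 35.3. Supt16 was thus below Ssrp1 in 3 of 3 libraries, with no overlap. Exons of Ssrp1 overlap those of P2rx3 on the opposite strand, and exons of Supt16 those of Rpgrip1, and the strand setting of the counting is not stated.

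Within each library Supt16 lay below Ssrp1 per kilobase by a log2 difference of -2.10, -2.05 and -1.81, a mean of -1.99 ± 0.093 (SE, 95% interval -2.19 to -1.79), or 3.97-fold (adjusted p = 1.17e-13, limma over all genes). With the spread of this gene alone the adjusted p was 0.00273 in limma's model without pooling. The background is high, since 96.1% of 13896 genes were called below Ssrp1 and 2.9% above it. Over 15 alternatives the difference ranged from -2.34 to -1.56. As a share of the reads of the pair, Supt16 took 23.9% (95% Wilson interval 22.8% to 24.9%) in replicate 1, 24.5% (23.7% to 25.3%) in replicate 2 and 27.7% (26.5% to 29.1%) in replicate 3. Replicate 3 lay above the other two, beyond its counting error. These intervals cover counting error only.

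NAP1-like proteins carry H2A-H2B dimers between cytoplasm and nucleus and deposit them. Nap1l4 (chromosome 7, 143513579 to 143549106, minus strand) had counts of 2523, 2356 and 2524, a mean of 2468 ± 96.7, and 798 ± 31.2 per kilobase. Its paralog Nap1l1 (chromosome 10, 111473223 to 111498150, plus strand) had counts of 2050, 2649 and 3298, a mean of 2665 ± 624. Per kilobase it stood at 534 ± 125. Nap1l1 was the most variable member, with replicate 3 at 1.61 times replicate 1, while Nap1l4 hardly moved. Some of its exon sequence is not unique: 20.9% of its 50-base stretches also occur in other annotated transcripts, the pseudogene Gm4204 first among them, so its reads are less certain than those of the other members of this group.

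Per kilobase Nap1l1 lay below Nap1l4 by a log2 difference of -0.99, -0.52 and -0.31 in replicates 1, 2 and 3, a mean of -0.61 ± 0.11 (SE; adjusted p = 2.23e-05, limma), where 94.5% of all genes were called below Nap1l4 and 3.93% above it. That order depended on the length used. Without division by length the log2 difference was 0.08 (adjusted p = 0.448, limma), with coding length it was 0.07 (adjusted p = 0.545), and with the spread of this gene alone the call ended (adjusted p = 0.0978). The share of Nap1l1 in the reads of the pair does not depend on length when libraries are compared. It was 44.8% (95% Wilson interval 43.5% to 46.1%) in replicate 1, 52.9% (51.97% to 53.87%) in replicate 2 and 56.6% (55.2% to 58.0%) in replicate 3, and no interval overlapped another.

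Anp32e (chromosome 3, 95929246 to 95947390, plus strand) encodes the chaperone that takes H2A.Z out of nucleosomes. Its counts were 1933, 1973 and 2601, a mean of 2169 ± 375, and its level per kilobase was 608 ± 105. Replicates 1 and 2 were close and replicate 3 was higher. Its paralogs Anp32a and Anp32b, acidic nuclear proteins that also bind histones, had 1242 ± 109 and 1324 ± 225 per kilobase. On that scale both were above Anp32e in each library. For Anp32b this depended on the length used. Without division by length its replicate 2 count was 1965, against 1973 for Anp32e. With coding length Anp32b and Anp32e lay nearly level, at log2 differences from Hira of 5.34 and 5.33.

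**Figure D2:**
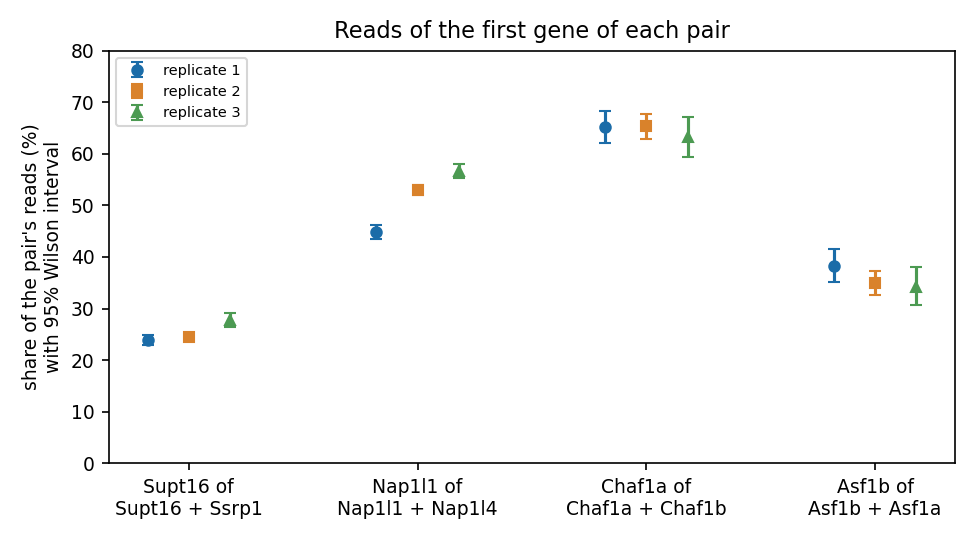
Share of each pair's reads that came from the first gene (percent, not divided by length) in 3 libraries, with 95% Wilson intervals for counting error. Nap1l1 ranges from 44.8% to 56.6% of its pair, while the intervals of the Chaf1a share and of the Asf1b share overlap between libraries.

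CAF-1 is the S-phase chaperone of newly made H3.1-H4. Chaf1a (chromosome 17, 56040439 to 56072289, plus strand), its large subunit, had counts of 504, 453 and 465, a mean of 474 ± 26.7. Chaf1b (chromosome 16, 93883901 to 93906115, plus strand), its middle subunit, had counts of 268, 240 and 269, a mean of 259 ± 16.8. Per kilobase they were at 53.6 ± 3.01 and 55.3 ± 3.59, and their ranges overlapped. The within-library log2 difference was -0.01, -0.003 and -0.13, a mean of -0.05 ± 0.12 (SE, 95% interval -0.29 to 0.19; adjusted p = 0.701, limma), so no difference was called. For comparison 52.4% of genes were called above Chaf1b and 37.7% below it.

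The comparison of the CAF-1 subunits depended on the length used. Chaf1a has 8854 exon bases in the annotation and Chaf1b 4681, and without division by length Chaf1a was higher by 0.87 on the log2 scale (adjusted p = 1.10e-12, limma). With coding length the difference was 0.20 (adjusted p = 0.108), and with the median transcript length -0.39 (adjusted p = 0.00149). Lengths were also counted from exon bases outside exons of other genes on either strand, with all reads kept. Chaf1a then lay above by 1.02 (adjusted p = 5.45e-17, limma), since part of Chaf1a is antisense to Ubxn6 and its length is shortened. In reads, Chaf1a took 65.3% (95% Wilson interval 62.2% to 68.2%) of the pair in replicate 1, 65.4% (62.9% to 67.8%) in replicate 2 and 63.4% (59.5% to 67.1%) in replicate 3, and these intervals overlap. The small CAF-1 subunit gene Rbbp4, which also serves other chromatin complexes, was far higher at 408 ± 3.18 per kilobase.

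ASF1 proteins accept H3-H4 and pass it on; ASF1B is linked to dividing cells and ASF1A works with HIRA. Asf1b (chromosome 8, 83955507 to 83970197, plus strand) had counts of 268, 263 and 264, a mean of 265 ± 2.93. This was the smallest spread of any member. Asf1a (chromosome 10, 53596757 to 53609225, plus strand) had counts of 434, 490 and 507, a mean of 477 ± 38.4. Per kilobase Asf1b stood at 113 ± 1.25 and Asf1a at 131 ± 10.6, without overlap.

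Asf1b lay below Asf1a per kilobase by a log2 difference of -0.05, -0.26 and -0.30, a mean of -0.20 ± 0.13 (SE, 95% interval -0.46 to 0.06; adjusted p = 0.128, limma), a difference that did not pass the test. It was called without replicate 1 (-0.28, adjusted p = 0.0463). It was also called without division by length (-0.84, adjusted p = 1.97e-07) and with coding length (-0.83, adjusted p = 9.54e-08). Exons of Asf1a overlap those of Mcm9 on the opposite strand. With bases shared on either strand left out of the lengths, but all reads kept, the difference was -1.15 (adjusted p = 1.89e-10, limma). The change from -0.20 thus came from the length alone. Asf1b took 38.2% (35.1% to 41.5%) of the pair's reads in replicate 1, 34.9% (32.6% to 37.3%) in replicate 2 and 34.3% (30.7% to 38.0%) in replicate 3.

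Hira (chromosome 16, 18877037 to 18970309, plus strand) encodes the subunit that gives the HIRA complex its name. Its counts were 175, 225 and 226, a mean of 209 ± 29.2 from 881 reads in all, the fewest of any member. Per kilobase it stood at 33.6 ± 4.70, above 30.2% of detected genes. Replicate 1 was low and the other two were alike. Hira is the only member whose exons overlap another gene on the same strand: 42.0% of its 50-base stretches are also in Gm28539, which was not analysed here. How reads in the overlap were counted is not stated, and this bears on every level set against Hira. Of its 6215 exon bases, 3437 lie outside that overlap.

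To compare the replication-coupled with the replacement route, each gene was set against Hira within each library on the per-kilobase scale. All 9 other members were called above Hira, at adjusted p of 5.02e-05 or less in limma, where 63.9% of 13896 genes were called above it and 24.6% below it. In edgeR's quasi-likelihood test on whole reads the 9 were called as well, against 64.3% of genes above and 24.1% below. Most genes lay above Hira, so the count says little about the members alone. The median log2 difference was 1.09 over all genes and 2.96 over the 9 members. In this comparison limma pooled the spread over genes fully, and all differences share the same 3 values of Hira. With a separate spread for each gene, 7 of the 9 were called.

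Per kilobase of exon, the genes for H2A-H2B and H2A.Z lay farthest above Hira. The log2 difference was 4.95 ± 0.16 (SE) for Ssrp1, 4.57 ± 0.16 for Nap1l4, 4.17 ± 0.16 for Anp32e, 3.97 ± 0.16 for Nap1l1 and 2.96 ± 0.16 for Supt16. Asf1a, whose protein works with HIRA though ASF1 proteins serve both routes, lay above Hira by 2.08, 1.89 and 1.93 in replicates 1, 2 and 3. The mean was 1.97 ± 0.16. Asf1b was above by 2.03, 1.63 and 1.64, a mean of 1.76 ± 0.18. These are folds of 3.91 for Asf1a and 3.40 for Asf1b. Without division by length the difference of Asf1b from Hira was smaller, 0.35 (adjusted p = 0.0483, limma), or 1.28-fold.

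On the same scale, the CAF-1 genes lay closest to Hira. Chaf1a exceeded it by 1.01, 0.50 and 0.53 on the log2 scale, a mean of 0.68 ± 0.16 (SE; adjusted p = 5.02e-05, limma), and Chaf1b by 1.02, 0.50 and 0.66, a mean of 0.73 ± 0.18 (adjusted p = 4.47e-05). With a separate spread for each gene the adjusted p was 0.069 and 0.0551, and a difference beyond 1.5-fold was not called for either gene (adjusted p = 0.359 and 0.267, limma). When lengths counted only exon bases outside same-strand overlaps, which shortens Hira and keeps all its reads, the sign turned: Chaf1a was at -0.18 (adjusted p = 0.309) and Chaf1b at -0.13 (adjusted p = 0.494). On that length Asf1b remained above Hira by 0.91 and Asf1a by 1.11. The order of the CAF-1 genes and Hira thus changed with the length used. Their place as the closest members changed too. When no length was used, Chaf1a lay 1.19 above Hira and Asf1b only 0.35. Chaf1b was then 0.32 above Hira and was not called (adjusted p = 0.077, limma).

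**Figure D3:**
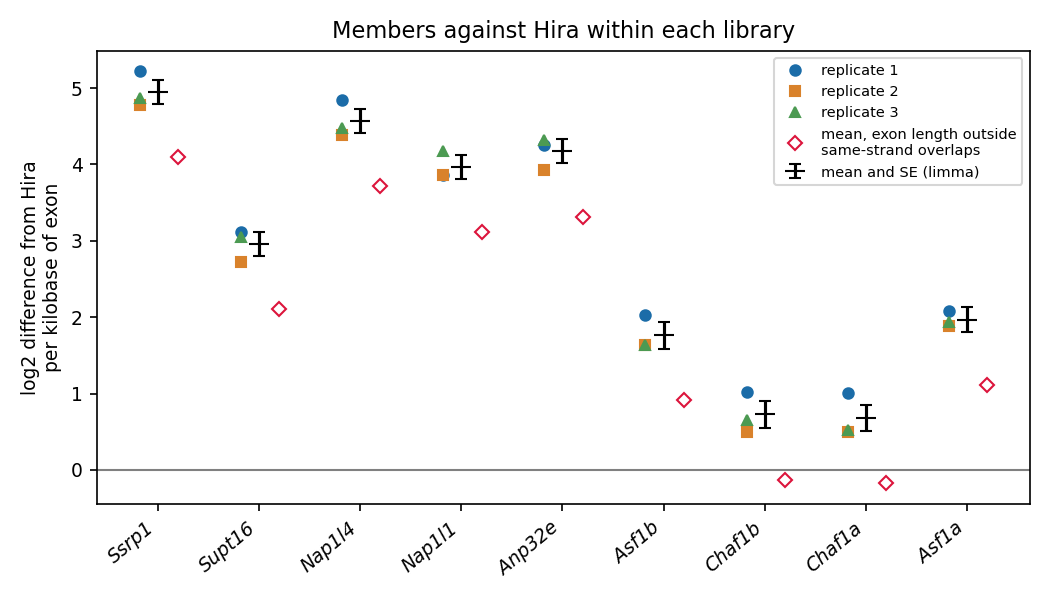
Log2 difference of each member from Hira per kilobase of exon, within each library (filled symbols), with the mean and SE from limma (black) and the mean when exon bases shared with other genes on the same strand are left out of the lengths (open diamonds). Chaf1a and Chaf1b lie at 0.68 and 0.73 with full lengths and at -0.18 and -0.13 with the shortened ones.

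Set against Asf1a instead, Chaf1a was lower by a log2 difference of -1.07, -1.39 and -1.41, a mean of -1.29 ± 0.12 (SE; adjusted p = 1.70e-12, limma; 0.0135 with a separate spread), where 62.1% of genes were called below Asf1a and 29.3% above it. Chaf1b was lower by a mean of -1.24 ± 0.13 (adjusted p = 4.83e-11). For Chaf1a the size varied with the length: the difference was -0.006 (adjusted p = 0.963) without division by length and -2.16 (adjusted p = 1.31e-21) with coding length. ASF1 proteins serve both routes, and here Asf1b was counted as replication-coupled and Asf1a as replacement. Averaged by route, the log2 level of Chaf1a, Chaf1b and Asf1b minus that of Hira and Asf1a was 0.32, -0.07 and -0.03 in the 3 libraries, a mean of 0.073 ± 0.211 (SD). The replicates differed in sign and the mean was smaller than their spread. Replicate 1, where Hira and Asf1a were both at their lowest, was the only library above 0, and without it the mean was -0.048.

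The other genes of these routes came from lists of known chaperones and their partners, 40 of which were measured. Of them 31 were called above Hira, 7 below and 2 were not called, with a median log2 difference of 2.12, beside the 63.9% of all genes called above it and 24.6% below. Among 7 replication-coupled genes, 6 were above Hira and 1 below, with a median of 2.55. Mcm2, a subunit of the replicative helicase that also binds H3-H4, stood at 174 ± 4.51 per kilobase, and Nasp, which keeps a soluble reserve of H3-H4, at 147 ± 12.1. Each was above Asf1b, Chaf1a and Chaf1b in every library. Mms22l, named after its value was seen, was the gene below Hira, at 19.4 ± 4.33 per kilobase, but with median transcript length it lay above Hira by 0.45 (adjusted p = 0.0251, limma).

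Among 6 genes of the replacement route, 5 were above Hira and 1 below, with a median of 1.60. The partners of HIRA in its complex were not at one level: Cabin1 stood at 112 ± 5.72 per kilobase, Ubn1 at 91.7 ± 1.83, and Ubn2 at 17.1 ± 2.07, which was below Hira in 3 of 3 libraries (log2 difference -0.98 ± 0.17 SE; adjusted p = 1.17e-08, limma). The place of Ubn2 turned with the length, to 0.44 above Hira with coding length (adjusted p = 0.0108) and 0.81 above it without division by length (adjusted p = 2.13e-06). Daxx, the H3.3 chaperone at heterochromatin and telomeres, was at 136 ± 13.9, and its remodeler partner Atrx at 85.8 ± 15.2. Dek, an H3.3-binding chromatin protein, was the highest of this list per kilobase of exon at 418 ± 58.5. These orders also depended on the length used. When no length was used, the log2 difference from Hira was 3.15 for Atrx, 2.70 for Cabin1, 2.67 for Dek and 1.04 for Daxx. With coding length Atrx was again above Daxx, at 1.86 against 1.49. Atrx and Ubn2 have very long annotated exons, 21757 and 21438 bases, of which 7428 and 3948 are in the longest coding sequence.

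Outside H3-H4, 4 of 7 further H2A-H2B genes were above Hira, 2 below and 1 not called, with a median of 2.81. Npm1 and Ncl, abundant nucleolar proteins that bind histones, stood at 1151 ± 145 and 788 ± 138 per kilobase. Set, an acidic protein that binds histones and inhibits their acetylation, was at 310 ± 89.6. Nap1l2 and Nap1l5, named after their values were seen, were the genes below Hira at 4.54 ± 1.53 and 23.4 ± 5.10 per kilobase. For Nap1l5 the log2 difference of -0.51 (adjusted p = 0.0435, limma) was not called with a separate spread (adjusted p = 0.113), without replicate 2 (-0.34, adjusted p = 0.348) or without replicate 3 (-0.61, adjusted p = 0.0698), and it turned to 0.44 with coding length (adjusted p = 0.0838). Nap1l1 and Nap1l4 were thus the abundant members of the NAP1 family here.

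Of 7 H2A.Z genes besides Anp32e, which belong to the complexes that insert or move that variant, 6 were above Hira and 1 below, with a median of 2.41. Ruvbl2, an ATPase of these complexes, stood at 471 ± 79.4 per kilobase, the histone-binding subunit Vps72 at 179 ± 19.7 and the remodeler Ep400 at 102 ± 2.14. Vps72 and Ep400 were below Anp32e in every library, and Ruvbl2 was below it in replicates 2 and 3 but not in replicate 1. Of the transcription-linked genes 5 of 5 were above Hira, with a median of 1.94. They included Supt6, a partner of elongating polymerase, at 343 ± 10.2 per kilobase, Sart3 at 129 ± 10.3 and Iws1 at 54.5 ± 5.87. The difference of Iws1 from Hira, 0.70, turned to -0.15 (adjusted p = 0.363, limma) with exon bases outside same-strand overlaps.

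Of the genes that prepare centromeres for the H3 variant CENP-A, Mis18a stood at 60.0 ± 2.13 per kilobase and was called above Hira (log2 difference 0.85 ± 0.19 SE; adjusted p = 6.68e-06, limma). That call was lost without division by length (-0.27, adjusted p = 0.161) and with exon bases outside same-strand overlaps (-0.005, adjusted p = 0.981). Oip5 stood at 32.3 ± 9.06 per kilobase, with a log2 difference from Hira of -0.07 ± 0.23 (adjusted p = 0.772). Of 5 genes for the import and early handling of H3-H4, 4 were above Hira and 1 below, with a median of 2.55. Most of these 5, Dnajc9 and Nasp among them, were also counted in the 7 replication-coupled genes. The equal medians of the lists are therefore not separate results. Ipo4, an import receptor for H3-H4, was at 262 ± 42.1 and the co-chaperone Dnajc9 at 348 ± 56.3. The paralogs Anp32a, Anp32b and Rbbp7 were all above it, with a median of 5.21.

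**Figure D4:**
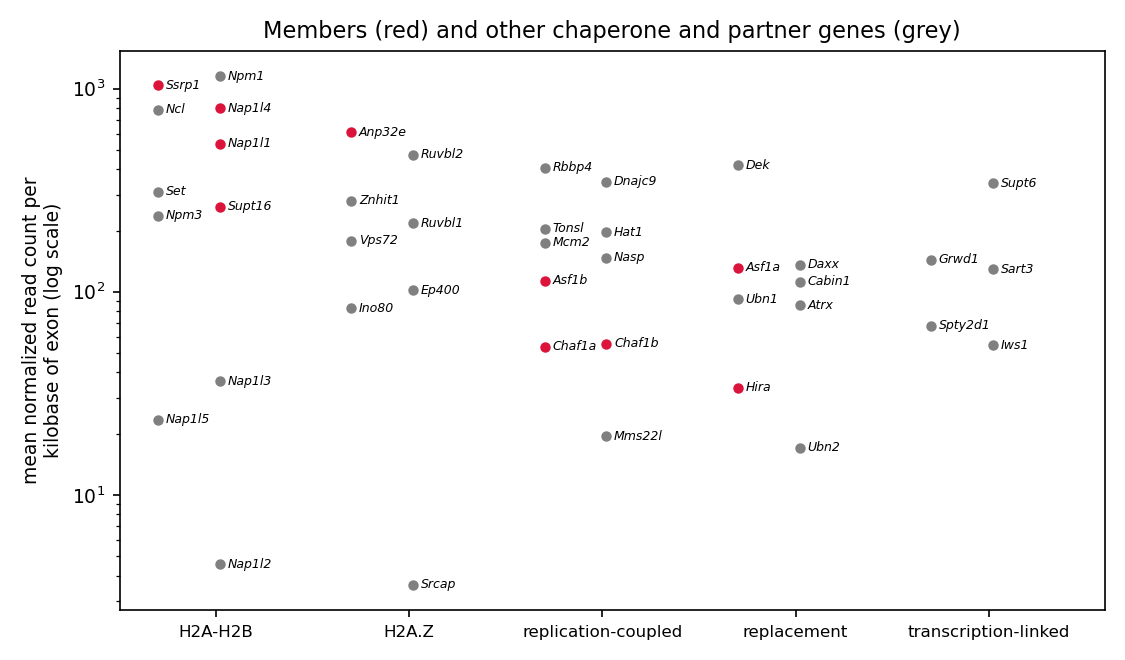
Mean normalized read count per kilobase of exon over 3 libraries (log axis) of members (red) and of other chaperone and partner genes (grey) of 5 roles; offsets within a role only separate the labels. Members range from Hira at 33.6 to Ssrp1 at 1038, and within the replacement list Hira lies above Ubn2 alone.

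Reads of each gene were then compared between the 3 cultures by a chi-square test against the library totals. Of the 10 members 6 varied at an adjusted p under 0.05, against 55.4% of 13941 genes, a share near the background. The 6 were Nap1l1, Nap1l4, Supt16, Ssrp1, Anp32e and Hira. The test is more sensitive for genes with more reads: the first 5 had 5350 to 16047 reads in all, while the 4 that were not called, Asf1a, Asf1b, Chaf1a and Chaf1b, had 1063 to 1995. Hira was called although it had the fewest, 881 (adjusted p = 0.0178). The SD of the log2 values had a median of 0.107 over the members and 0.161 over all detected genes. These medians are not matched for read depth, since that SD includes counting error.

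The size of the variation separated the called genes. For Nap1l1 the SD of log2 values was above that of 97.7% of genes of similar mean (chi-square adjusted p = 5.15e-62), for Anp32e above 90.2% (adjusted p = 4.35e-28) and for Supt16 above 77.4% (adjusted p = 4.82e-11). In Ssrp1 and Nap1l4 the spread was small, above 14.5% and 15.6% of such genes, although the chi-square test called both at their depth (adjusted p = 0.000128 and 0.00105). For 5 of the 6 genes the call was lost without 1 of the libraries. Without replicate 3 the adjusted p was 0.864 for Anp32e and 0.403 for Supt16 in the chi-square test. Without replicate 2 it was 0.946 for Ssrp1 and 0.863 for Nap1l4, and without replicate 1 it was 0.947 for Hira. Nap1l1 was called whichever library was left out.

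Replicate 3 was the highest library for 8 of the 10 members, all but Chaf1a and Asf1b, and for 35.7% of all detected genes. By how much differed: for Hira, Nap1l4, Ssrp1 and Chaf1b another library was nearly as high, while Nap1l1, Supt16 and Anp32e stood clearly higher there than in the other two. Of the other histone-binding genes named above, Set, Ncl and Npm1 were among those highest there. Their normalized counts were 996, 1109 and 1677 for Set, 6988, 7481 and 9627 for Ncl, and 2814, 2874 and 3511 for Npm1. In contrast, Mcm2, Vps72 and Rbbp4 were highest in replicate 1 and Dek in replicate 2. The library of replicate 3 had the fewest reads and the lowest sum of astrocyte and of microglial markers. Whether depth or the mix of cells had a part in these values was not tested. Hira and Asf1a were lowest in replicate 1, Chaf1b in replicate 2, and Chaf1a was highest in replicate 1. The highest library of Asf1b was 1.02 times its lowest, a spread below that of all but 0.891% of genes of similar mean. Its chi-square of 0.249 is below what counting error alone gives on average, so this spread is no measure of steadiness.

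**Figure D5:**
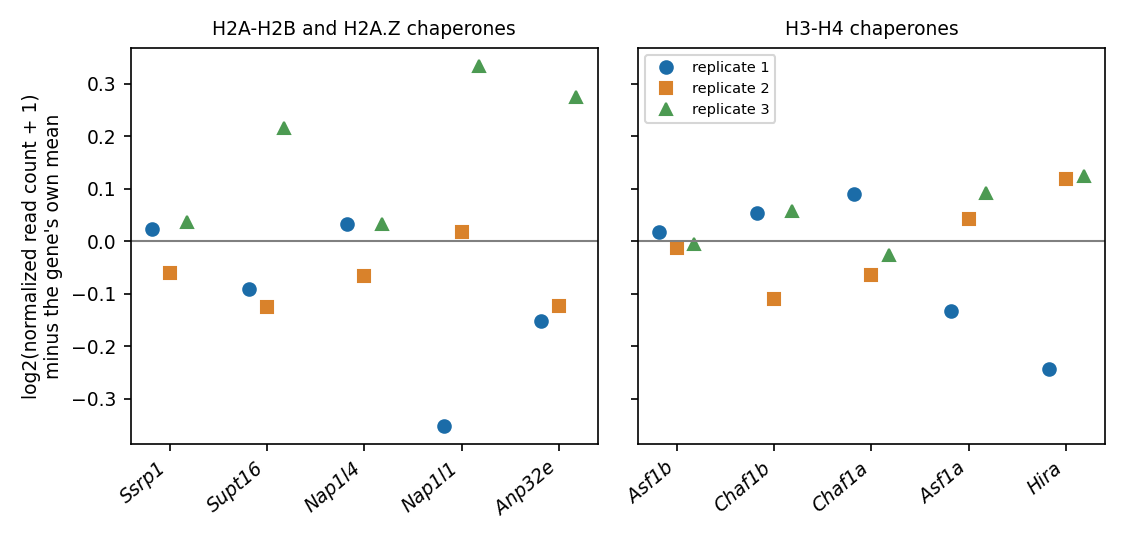
Log2(normalized read count + 1) of each member in each library minus the gene's own mean over 3 libraries, for H2A-H2B and H2A.Z chaperones (left) and H3-H4 chaperones (right). Nap1l1 spans the widest range, with replicate 3 at 0.33 and replicate 1 at -0.35, and Asf1b the narrowest.

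Since Chaf1a, Chaf1b and Asf1b belong to genes known to be expressed with the cell cycle, the 250 bases before the RefSeq start of each member (GRCm38.p6) were searched on both strands for 3 short motifs, chosen after the sequences had been seen. These were GCGGGAA, an E2F site, TTTGAA, a cell cycle homology region (CHR), and CCAAT. Among 32841 promoters of the same length, 3.82% held the first, 16% the second and 33.9% the third. RefSeq gave promoters for 9 members, and Nap1l4 had no entry. Both CAF-1 promoters are shown, because each holds the E2F letters, with matches on either strand in capitals:
Chaf1a, chr17:56040166-56040415, plus strand: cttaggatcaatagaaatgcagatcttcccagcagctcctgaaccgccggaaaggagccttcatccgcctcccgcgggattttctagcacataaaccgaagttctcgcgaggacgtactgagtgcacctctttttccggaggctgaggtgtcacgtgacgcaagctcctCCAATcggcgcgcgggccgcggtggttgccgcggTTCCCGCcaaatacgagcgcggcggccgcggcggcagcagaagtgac
Chaf1b, chr16:93883651-93883900, plus strand: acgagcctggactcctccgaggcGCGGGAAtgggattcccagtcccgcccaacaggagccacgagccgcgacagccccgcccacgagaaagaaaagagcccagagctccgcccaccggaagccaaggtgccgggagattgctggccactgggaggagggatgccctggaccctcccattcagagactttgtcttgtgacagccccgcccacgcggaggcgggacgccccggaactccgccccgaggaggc

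The E2F letters lay 41 bases before the start in Chaf1a and 221 bases before it in Chaf1b, and a CCAAT match lay at 77 in Chaf1a. Asf1b had no E2F letters but 4 CCAAT matches and the CHR letters 9 bases before its start, which are in capitals in the last 30 bases:
Asf1b, chr8:83955664-83955693, plus strand: aaggcggagccggctaTTTGAAgggagcgc

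GENCODE places the start of Asf1b upstream of this stretch. Of the replacement pair, Asf1a held a single CCAAT match at 13 bases and Hira no match. Supt16, outside that pair, held no match either. Of the 250 bases searched, 187 in Asf1b, 177 in Supt16, 93 in Asf1a and 95 in 1 Ssrp1 promoter lie in the gene's own GENCODE exons. The Asf1a stretch also overlaps exons of Mcm9, and its match lies past the GENCODE start of Asf1a. A lack of matches in these stretches does not cover the sequence before the GENCODE starts. The stretch searched for Hira ends at 18876749, before the GENCODE start at 18877037, and overlaps exons of Mrpl40. Among the other members, Nap1l1 had E2F letters at 166, Anp32e CHR letters at 190 and 4 CCAAT matches, and the promoters listed for Ssrp1 E2F letters at 225 and CHR letters at 119 and 37. A match is a run of letters, not a measured binding site, and binding was not measured in these libraries.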

How the data were processed

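The deposited values are normalized read counts (a signal per gene) for 3 poly(A) libraries made with a stranded kit, per the labels, and the authors normalized them with DESeq2 on mm10, per the submitters' processing notes. The aligner, counter and strand setting are not stated in those notes or the labels. Whole reads were recovered for 100% of values within 0.05 reads. GENCODE vM21 matched 99.5% of gene identifiers and gave exon lengths.

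Levels are log2(normalized count + 1) minus log2 exon kilobases. Differences from a reference gene in the same library were fitted with an intercept-only limma 3.58.1 model with a trended prior (R 4.3.3) over genes with a mean of 10 or more, two-sided, with Benjamini-Hochberg adjustment over all genes. An edgeR 4.0.16 quasi-likelihood test on the recovered reads called 8941 genes above Hira and 3352 below. The chi-square test of reads between libraries took genes with at least 30 reads. Procedures were tested on simulated data. P-values describe these 3 cultures.

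The members and lists were chosen with earlier results of these data known. Named are all members, the 3 genes of each list with the highest mean normalized count (not divided by length), and Ubn1, Ubn2, Cabin1, Daxx, Atrx and Rbbp4; 1 gene that this rule selects is not reported here. Python 3.11.15 with pandas 2.3.3 and SciPy 1.17.1 was used.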

Additional observations from a re-analysis of the deposited data

How the results depend on the processing

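No paired analysis was possible because the libraries form a single group. Of 135 alternative values for single members against Hira, 127 kept their direction and side of the threshold, 5 were no longer called and 3 reversed: Chaf1a at -0.18 with exon bases outside same-strand overlaps, and Chaf1b at -0.13 with those or with bases outside overlaps on either strand. These overlap lengths were chosen after seeing the data, and they change the length of a gene but keep all its reads. The count of 31 other genes above Hira ranged from 28 to 32, and the 7 below became 4 with coding length and 4 beyond 1.5-fold. Nap1l1 against Nap1l4 reversed without length (0.0849) and with coding length (0.0663), and its -0.61 was not called with a separate variance (adjusted p = 0.0978 in limma) or beyond 1.5-fold (0.448). Chaf1a against Chaf1b reversed without length (0.87), with coding length (0.20) and on either strand (1.02), and passed the threshold at -0.39 with median transcript length. Asf1b against Asf1a passed it at -0.84 without length, -0.83 with coding length, -1.77 with median transcript length and -1.15 on either strand, and ranged from -0.28 to -0.15 with 1 replicate left out. The mean of the replication-coupled minus replacement level became -0.0301 with coding length, -0.157 with median transcript length, -0.354 on the same strand and -0.469 on either strand, and ranged from -0.048 to 0.144 with 1 replicate left out. With 1 replicate left out, 4 or 5 members varied between libraries in place of 6. Depth limits Hira most, with 881 reads.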

Other observations

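Genes that peak in S phase or mitosis were measured as company for the replication-coupled members. All 10 were called above Hira per kilobase of exon, with a median log2 difference of 3.25 against 1.09 over all genes, of which 63.9% were called above it. Of the 10, Tyms turned to -0.19 (adjusted p = 0.301, limma) with exon bases outside same-strand overlaps. Top2a, the topoisomerase of dividing cells, stood at 416 ± 50.7 per kilobase (SD, n = 3), the proliferation marker Mki67 at 355 ± 39.5 and the helicase subunit Mcm6 at 331 ± 17.8. Pcna and Mcm5, named after their values were seen, had normalized counts of 1380, 1414 and 1422, and of 1139, 1125 and 1130, in replicates 1, 2 and 3. Their spread, like that of Asf1b, was among the smallest of genes of similar mean, below all but 2.46% of them for Pcna and 0.398% for Mcm5. The chi-square values were 0.337 for Pcna, 0.586 for Mcm5 and 0.249 for Asf1b, below what counting error alone gives on average. Such small spreads therefore cannot rank these genes for steadiness between cultures. Mki67, in contrast, had 3169, 3580 and 3964, lowest in replicate 1. The spread of Mki67 was above that of 72.0% of genes of similar mean, that of Top2a above 79.1% and that of Mcm6 above 25.3%. Of the 10 genes, 6 varied between libraries in the chi-square test at an adjusted p under 0.05, against 55.4% of all genes.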
